A study of Mus musculus with 4 samples.

Results

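The regions described here had a called peak in the untreated Slc6a8-null macrophage library and in no other library of the study. A region with no called peak may still be accessible below the level at which peaks were called. They were chosen from the deposited peak lists themselves: peaks of the 4 lists that overlapped by at least 1 bp were merged, and a merged region was a member where it held a peak of the Slc6a8-null untreated list and none of the other 3 lists. The rule found 1540 members among 20540 merged regions, 7.5% of them, which is 11.2% of the 13714 peaks of that list. Membership and peak score come from the readout that made the choice, so they are described without a test. ATAC-seq, which reads where the Tn5 transposase can reach DNA, had been used to ask how accessibility differs in polarizing macrophages without creatine. The cells were bone marrow-derived macrophages of C57BL/6 background, grown with 10% M-CSF for 5 days, and each library was made from 50000 of them. Wild-type (WT) and Slc6a8-/y (KO) macrophages were either untreated or given IL-4 at 10 ng/mL for 6 h. Each of the 4 groups held 1 library, so every comparison is between libraries and not between conditions. The sources used here do not say how the deletion was made, how old the mice were or whether marrow was pooled.

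Slc6a8 encodes the creatine transporter and lies on the X chromosome. In macrophages, open sites away from gene starts are mostly enhancers, where the ETS factor PU.1 works with C/EBP, AP-1, RUNX and IRF factors. Open sites at gene starts are promoters, and many broadly active ones carry CpG islands with SP/KLF, NF-Y and GABP-type ETS motifs.

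The start windows of 4 genes show what the strongest members at gene starts look like: Dlgap4, Ap2a2 and Ppp4c had the 3 highest members covering an annotated start, and Abca1 had the highest among genes of lipid handling. Each sequence runs 5′ to 3′ from 250 bases before the start to 50 bases after it, from RefSeq on GRCm38.p6, the assembly whose coordinates mm10 shares. Capitals mark a match, on either strand, to any of the 15 motifs searched. The windows lie at chr2:156720715-156721014, plus strand, at chr7:141561930-141562229, plus strand, at chr7:126792315-126792614, minus strand and at chr4:53159846-53160145, minus strand.
Dlgap4: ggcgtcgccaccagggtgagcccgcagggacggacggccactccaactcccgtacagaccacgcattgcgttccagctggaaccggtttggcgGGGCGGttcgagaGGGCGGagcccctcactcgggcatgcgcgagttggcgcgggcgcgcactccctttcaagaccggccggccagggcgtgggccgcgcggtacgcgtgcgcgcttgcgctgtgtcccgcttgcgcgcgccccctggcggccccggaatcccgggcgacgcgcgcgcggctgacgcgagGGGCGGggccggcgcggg
Ap2a2: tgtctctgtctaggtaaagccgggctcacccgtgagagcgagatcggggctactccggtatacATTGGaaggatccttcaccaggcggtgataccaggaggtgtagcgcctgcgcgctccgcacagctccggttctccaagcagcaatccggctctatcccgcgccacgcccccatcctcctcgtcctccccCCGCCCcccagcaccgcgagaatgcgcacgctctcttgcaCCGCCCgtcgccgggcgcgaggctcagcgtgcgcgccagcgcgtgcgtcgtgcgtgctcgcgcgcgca
Ppp4c: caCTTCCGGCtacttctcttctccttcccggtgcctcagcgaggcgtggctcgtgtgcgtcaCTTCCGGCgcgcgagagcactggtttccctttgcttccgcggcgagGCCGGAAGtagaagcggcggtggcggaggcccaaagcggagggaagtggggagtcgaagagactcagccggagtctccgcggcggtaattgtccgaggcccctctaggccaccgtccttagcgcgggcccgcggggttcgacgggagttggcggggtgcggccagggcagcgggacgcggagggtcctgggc
Abca1: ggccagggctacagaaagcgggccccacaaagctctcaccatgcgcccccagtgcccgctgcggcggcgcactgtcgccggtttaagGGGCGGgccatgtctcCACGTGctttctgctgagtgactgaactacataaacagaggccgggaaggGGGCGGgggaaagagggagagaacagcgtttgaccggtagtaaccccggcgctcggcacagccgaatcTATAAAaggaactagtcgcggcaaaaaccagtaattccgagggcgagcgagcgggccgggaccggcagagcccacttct
The Dlgap4 window held 50 CpG pairs and 3 SP/KLF matches (GGGCGG), and its GC content was 76.3%. The Ppp4c window held 3 GABP-type ETS matches (GCCGGAAG) and 36 CpG pairs. The Abca1 window held 26 CpG pairs, 2 SP/KLF matches, 1 E-box (CACGTG) and 1 TATA match, the last a match to TATAAA on either strand.

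A second set of windows shows the PU.1-type ETS letters GAGGAAGT, whose share was higher in weak members than in other weak peaks. Myg1, Zfp605 and Atp8b4 had the 3 highest-scoring members with such a match, and the genes were chosen after the values were seen. The windows lie at chr15:102331459-102331758, plus strand, at chr5:110109842-110110141, plus strand and at chr2:126491504-126491803, minus strand.
Myg1: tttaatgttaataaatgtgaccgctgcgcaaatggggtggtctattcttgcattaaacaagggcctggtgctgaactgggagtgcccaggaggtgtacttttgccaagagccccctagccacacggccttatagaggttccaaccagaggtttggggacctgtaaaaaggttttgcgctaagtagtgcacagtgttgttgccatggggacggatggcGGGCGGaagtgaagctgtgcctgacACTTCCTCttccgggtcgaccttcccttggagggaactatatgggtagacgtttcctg
Zfp605: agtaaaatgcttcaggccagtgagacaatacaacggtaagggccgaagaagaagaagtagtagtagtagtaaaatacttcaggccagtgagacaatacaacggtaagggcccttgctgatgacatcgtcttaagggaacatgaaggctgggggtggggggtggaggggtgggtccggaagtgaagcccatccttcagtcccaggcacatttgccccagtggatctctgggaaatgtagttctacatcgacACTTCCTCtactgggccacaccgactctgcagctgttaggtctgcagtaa
Atp8b4: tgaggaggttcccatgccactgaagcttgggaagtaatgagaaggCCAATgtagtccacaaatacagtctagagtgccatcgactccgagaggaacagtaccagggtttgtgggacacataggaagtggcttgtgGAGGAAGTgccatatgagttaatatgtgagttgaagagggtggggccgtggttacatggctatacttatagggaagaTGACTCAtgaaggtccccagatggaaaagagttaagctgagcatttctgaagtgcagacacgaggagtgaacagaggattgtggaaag
These windows were poorer in CpG pairs than the first set, with 10 at Myg1, 7 at Zfp605 and 4 at Atp8b4. The members at these starts scored 63.26, 62.52 and 62.5, in the lowest quartile of the list.

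Among the lists, the untreated ones were the longer, with 17339 peaks for WT and 13714 for KO against 9930 and 10443 after IL-4. No source used here states a read depth. Slc6a8 had no peak within 10 kb in any library, so the deletion could not be checked from these lists. Of 10 macrophage markers, 8 had a KO untreated peak within 10 kb of the gene, without Adgre1 and Fcgr1, against 10 in WT untreated. All 5 dendritic cell markers had one, 3 of 6 T cell, 1 of 5 B cell and 1 of 4 erythroid markers did, and none of the 6 neutrophil, 4 mast cell or basophil and 4 fibroblast markers did. WT untreated had one at 5 dendritic cell, 3 T cell, 3 B cell, 1 erythroid and 1 neutrophil markers. Counting gene edges only, KO untreated had peaks at 5 macrophage, 1 dendritic cell and no T cell, B cell or erythroid markers. For WT untreated these were 7 macrophage, 1 B cell and 1 neutrophil markers. The part of other cells in the members was not tested.

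The members were weak peaks. Their score, the authors' deposited value for each peak whose unit is not stated, ran from 50.01 to 149.25 with a median of 59.21, and 819 members (53.2%) scored below 60. Peaks that KO untreated shared with all other libraries had a median of 150.06. Of the lowest score quartile of the list, from 50.01 to 65.7, 1105 of 3429 peaks were members (32.2%, exact Clopper-Pearson 95% interval 30.7 to 33.8). Of the next quartile 377 of 3428 were members (11%), of the third 58 of 3429 (1.69%), and of the highest quartile, from 153.23, 0 of 3428, which allows a share of up to 0.108%. All intervals cover counting error only.

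**Figure D1:**
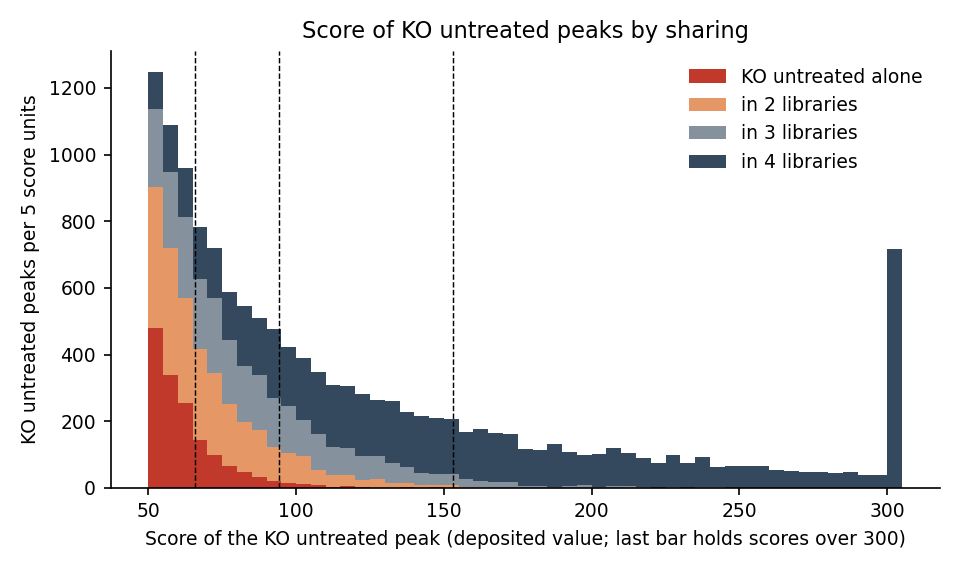
Number of KO untreated peaks per 5 score units, stacked by the number of libraries that hold the region, with dashed lines at the quartile bounds and every score over 300 in the last bar. The members (red) lie at the low end, with a median of 59.21, and none scored above 149.25.

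The share of a list found alone moved with the length of the list. As deposited, 3916 regions, 19.1% of the merged regions, were found in WT untreated alone, 585 (2.85%) in WT IL-4 alone and 691 (3.36%) in KO IL-4 alone. Each set was 22.6%, 5.89% and 6.62% of the peaks of its own list, against 11.2% for KO untreated. With each list limited to its 9930 highest scores, the share was 10.2% (9.60 to 10.8) for KO untreated and 9.06% for WT untreated. It was 13.3% for WT and 12.6% for KO macrophages given IL-4. The KO untreated share then lay below those of both IL-4 libraries.

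The highest members lay at genes of varied function. The first was at the start of Dlgap4, a scaffold protein of the postsynaptic density (149.25). The locus, meaning the gene span with 10 kb on each side, held 1 weaker WT untreated peak (64.94) and no peak of either IL-4 library. The second covered the start of Ap2a2, a subunit of the AP-2 clathrin adaptor (145.2), where WT untreated had 1 locus peak at 50.84 and the IL-4 libraries had none. The third lay inside Pdlim7, a PDZ and LIM domain protein (143.2). The region at Ppp4c, the catalytic subunit of protein phosphatase 4, scored 138.38, and the region at Sphk2, which makes sphingosine 1-phosphate, shared its 137.53 with the neighbouring Rpl18, a ribosomal protein gene. Fes, a tyrosine kinase of myeloid cells, had 136.12, and Adam8, a membrane metalloprotease, had 134.64 inside the gene. Further high members lay inside 1110051M20Rik (121.58) and at the edge of Ccdc28b (118.18). Those inside genes went on with Nedd4l, a ubiquitin ligase (115.93), Aida (113.18), Rfc1, a subunit of the clamp loader of replication (108.5), Trio, a guanine nucleotide exchange factor (108.35), Zbtb17, the transcription factor Miz-1 (106.93), and Cyfip2, a member of the WAVE complex (106.67).

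Some of these loci held strong peaks of the other libraries elsewhere, and some held none. At Rdx, which encodes radixin, a linker of actin to the membrane, the member (126.93) was the single locus peak in the study, and the nearest peak of another library was 119613 bp away. Ctps2, a CTP synthase on the X chromosome, likewise had its member (121.45) and no locus peak elsewhere, and so did Slc52a3, a riboflavin transporter (118.08). Pprc1, a coactivator of the PGC-1 family, was of the other kind: its member (124.49) lay 208 bp from a peak of another library, and the locus held peaks of up to 250.92 (WT untreated), 61.95 (WT IL-4) and 154.34 (KO IL-4). Of the members at no gene edge, the highest outside genes scored 138.12 and lay 77958 bp from Map3k1, a kinase upstream of JNK.

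A gene edge was taken as the 1 kb around an annotated start, or around either gene end where no start was annotated. At edges lay 390 members (25.3%, 23.2 to 27.6), inside genes 601 (39.0%) and outside genes 549 (35.6%). Moved by 20 kb, 5.52% of the members met an edge. Of all KO untreated peaks 52.3% lay at edges, and of those in all libraries 67.0%. The class of the members was thus more often distal than that of the list as a whole.

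The difference was present among peaks of like score. In the lowest quartile the edge share was 23.4% of members (21.0 to 26.1), 31.0% of peaks in 2 libraries (28.3 to 33.7), 37.2% in 3 and 38.0% in 4 (33.4 to 42.9). In the second quartile it was 28.6%, 37.7%, 44.5% and 46.8% in that order. In the third, with 58 members, it was 39.7% (27 to 53.4) against 44.3% in 2 libraries, whose interval it overlapped, and 62.2% in 4. Within the lowest quartile the median score was 55.94 in members and 58.51 in peaks of all libraries, so scores were close but not equal. Regions alone in another library also had low edge shares. Over all scores these were 23.2% (21.9 to 24.6) for WT untreated, 20.3% (17.2 to 23.8) for WT IL-4 and 18.8% (16.0 to 21.9) for KO IL-4. The last interval lay below that of the members over all scores, 23.2 to 27.6. In the lowest quartile of its own list, KO IL-4 alone had 18.7% (15.3 to 22.5). That interval overlapped the 21.0 to 26.1 of lowest-quartile members. For WT untreated and WT IL-4 alone the lowest-quartile shares were 21.8% (20.1 to 23.5) and 20% (16.4 to 24.0).

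**Figure D2:**
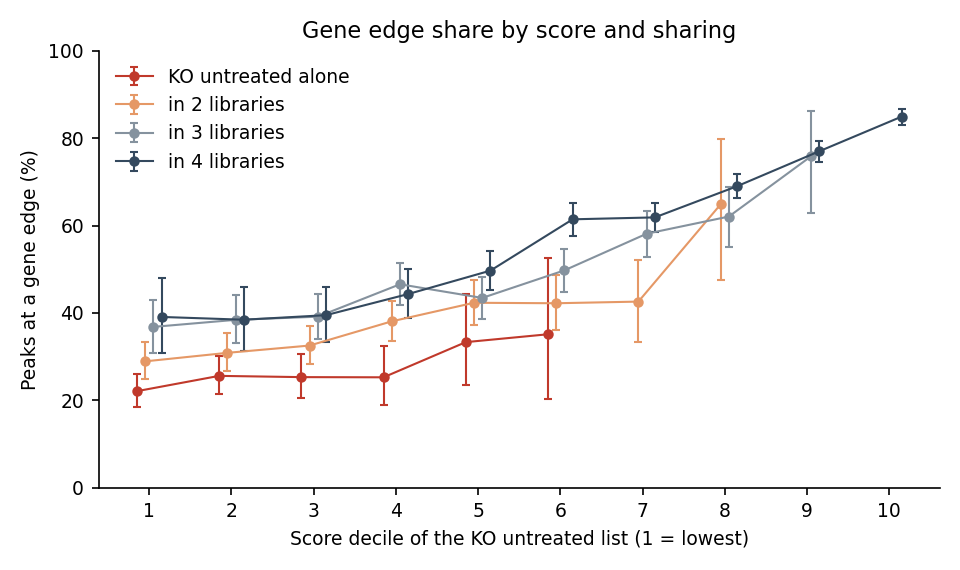
Share of KO untreated peaks at a gene edge (percent) in each score decile of the list, by the number of libraries holding the region, with exact 95% intervals of counting error. In the lowest decile 22.1% of members and 39.1% of peaks in 4 libraries lay at an edge.

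Members were also narrow, with a median width of 390 bp and a range of 192 to 2933 bp. In the lowest quartile the median was 372 bp (366 to 377), against 397 bp in peaks of 2 libraries, 408 bp in 3 and 425 bp in 4. In the third quartile members (558.5 bp, 520 to 607) and peaks of 2 libraries (560 bp, 544 to 572) had overlapping intervals. Away from edges the lowest-quartile members lay a median of 23695 bp from a gene start (21380 to 27770), and 30.0% of them were over 50 kb from one (26.9 to 33.2). For other lowest-quartile peaks away from edges the median was 22698 bp (20404 to 25031) and the share 27.3% (25.1 to 29.6), so the intervals overlapped in both measures.

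Few members lay just beside a peak of another library. The nearest such peak was within 500 bp for 97 members (6.30%), within 1 kb for 156 (10.1%, 8.67 to 11.7) and within 50 kb for 80.1%, and the median distance was 14956 bp. Of the 156, the nearest peak belonged to WT untreated for 93, WT IL-4 for 31 and KO IL-4 for 32. Among regions alone in those libraries the share within 1 kb was 8.17%, 7.52% and 9.12%. The rule's limit is a single base: the members at Klf13, Nfia and Tlr7 missed a peak of another library by 7, 12 and 17 bp, while the peaks at Capzb, Simc1 and Crat overlapped one by 4, 5 and 9 bp and were not members.

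**Figure D3:**
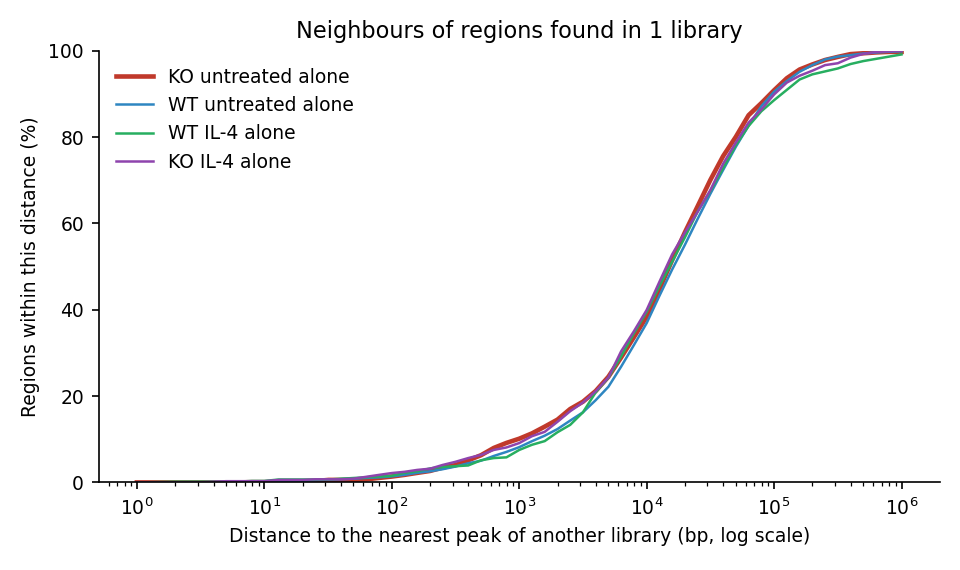
Share of regions found in 1 library alone (percent) whose nearest peak of another library lies within the distance on the log axis (bp). The 4 curves lie close together, and the median distance of the KO untreated regions was 14956 bp.

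Members lay within 10 kb of 1498 of 21887 protein-coding genes (6.84%), and of the 11295 genes with any KO untreated peak at the locus 13.3% had a member. At 318 of the 1498 genes (21.2%) no other library had a locus peak, against 9168 of all 21887 genes (41.9%). The latter include genes with no peak in any library, so the difference is not a trait of genes with a member. By the rule, every KO untreated peak that is not a member shares its region with another library. The edge of 421 genes (1.92%) held a member. Of these, 107 had an edge peak in another library and 314 (74.6%) had none. Members overlap no peak of another library by the rule, so this count follows largely from the choice, and no like share was computed for other edges. Genes with a member had a median span of 29030.5 bp, those with any KO untreated peak 23088 bp and all genes 17169 bp, and a longer span has more room for a peak. Of the genes, 1399 had 1 member, 88 had 2 and 11 had 3 or more. Rbms1, an RNA-binding protein, had 4 members inside the gene at 82.34, 59.34, 57.33 and 51.27. Antxr2, an anthrax toxin receptor, also had 4, of which 1 was at its edge (50.34). Celf2, an RNA-binding protein, Csgalnact2, an enzyme of chondroitin sulfate synthesis, Xdh, xanthine dehydrogenase, Mbp, myelin basic protein, and Pag1, an adaptor that binds the kinase Csk, had 3 each, as did Fggy, Ncoa7 and Srgap2.

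The gene lists were set beside the 6.84% of all genes, and beside the 13.3% of genes with any KO untreated peak at the locus, since the lists differ in how many genes have such a peak. A locus took in 10 kb on each side, so a member counted for a gene could lie outside it or at another gene's edge. Of genes of cholesterol and lipid handling 8 of 28 had a member (28.6%, 13.2 to 48.7), with a median gene span of 23697 bp. Of the 24 with a KO untreated peak it was 33.3% (15.6 to 55.3), and the interval lay above 13.3%. Abca1, which exports cholesterol to apolipoproteins, had the highest (121.42) at its start, where no other library had an edge peak, and WT untreated had 1 other locus peak at 87.61. Srebf1, a transcription factor of lipid synthesis, had a member at its edge (87), and the locus held peaks of 82.85 in WT untreated and 107.44 in WT IL-4. Srebf2, which drives cholesterol synthesis genes, had one inside the gene (65.65) beside locus peaks of 390.69 (WT untreated), 209.57 (WT IL-4) and 185.03 (KO IL-4). Others were Cd36, Cpt1a, Scd2 and Apoe, at 63.17, 60.25, 55.73 and 52.54. The Scd2 region lay outside genes, 7452 bp from Scd2.

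Genes of the innate immune machinery had members at low scores. Of pattern recognition genes 5 of 19 had one (26.3%, 9.15 to 51.2), and 41.7% of the 12 with a KO untreated peak (15.2 to 72.3), an interval that also lay above 13.3%. The 5 genes were Tlr7, a sensor of single-stranded RNA (62.6, 17 bp from a peak of another library), Aim2, a sensor of DNA in the cytosol (58.42), Tlr2, a receptor of bacterial lipoproteins (57.19), Tlr5 and Clec4e. The Tlr5 region lay outside genes, 9710 bp from Tlr5. The Tlr7 region was no member where a peak within 500 bp counted as shared. No list share was recomputed under the alternatives, so how far this excess rests on such regions was not tested. Of macrophage surface and complement genes 6 of 28 had one (21.4%, 8.30 to 41.0), and 28.6% of the 21 with a KO untreated peak (11.3 to 52.2), an interval that included 13.3%. Mertk, a receptor for apoptotic cells, had a member of 77.66 at its edge, but WT untreated had an edge peak there too, and a peak of another library lay 76 bp away. Itgam, the CD11b integrin chain, had 56.27. The Itgam member lay at an edge with no edge peak elsewhere, and WT untreated had a locus peak of 64.54. Of interferon response genes 4 of 30 had one (13.3%, 3.76 to 30.7). The edge of Rsad2, the antiviral protein viperin, had a member of 80.23, and the locus held a WT untreated peak of 66.74. Oas1a, an antiviral sensor of double-stranded RNA, had 57.1 at its edge, but WT untreated had an edge peak there too. A peak of another library lay 252 bp from that member, and the best WT untreated locus score was 76.88. Stat2 and Il23a shared 1 region (57.17), which lay at the edge of Il23a. Of inflammation and NF-kB genes 3 of 28 had one (10.7%, 2.27 to 28.2), with Nfkb1, which encodes p105, highest at its edge (69.38), and Il12b, a subunit of IL-12 and IL-23, had 58.51. In MHC class II presentation 3 of 17 genes had one, the highest at H2-DMa (66.36), and Cd40 and Cd74 had no locus peak in any other library, with members of 62.39 and 50.9. The H2-DMa region lay at the edge of Brd2.

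The lists of transcription factor and chromatin genes had shares above 6.84% with intervals that included it. Of macrophage lineage factors 4 of 24 had one (16.7%, 4.74 to 37.4). Spi1, which encodes PU.1, had a member of 88.7 inside the gene, 908 bp from a peak of another library, and the best locus scores were 58.8 (WT untreated) and 69.17 (WT IL-4), and KO IL-4 had no locus peak. Runx1 had a member at its edge (62.34), where WT untreated also had an edge peak, and Mef2c one inside the gene (67.71). Cebpb, Irf8, Stat6 and Csf1r had none. Of AP-1 and immediate early genes 4 of 19 had one (21.1%, 6.05 to 45.6), among them Dusp1, a MAP kinase phosphatase (74.78), Ier2 (67.74) and Junb, an AP-1 subunit (66.36). The Dusp1 region lay outside genes, 2153 bp from Dusp1. WT untreated also had an edge peak at Ier2, and every library had one at Junb. Of SWI/SNF subunits 3 of 18 had one (16.7%, 3.58 to 41.4), Arid1b with 2 members, the higher at 85.01, Smarcd2 with 57.57 and Smarce1 with 53.22. The Smarcd2 region lay 3465 bp from that gene, at the edge of Tcam1. Of DNA methylation and histone modifier genes 3 of 29 had one (10.3%, 2.19 to 27.4), the histone deacetylase Hdac7 (74.86), the remodeler Chd4 (73.98) and the methyltransferase Kmt2a (55.8). All lay outside the gene itself, 5574 bp from Hdac7, 6776 bp from Chd4 and 3841 bp from Kmt2a. The Kmt2a region was at the edges of Tmem25 and Ttc36.

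Cytoskeletal and lysosomal genes also had members. Of genes of the cytoskeleton and its regulators 6 of 32 had one (18.8%, 7.21 to 36.4), and 20.7% of the 29 with a KO untreated peak (7.99 to 39.7), an interval that included 13.3%. Diaph1, a formin, was highest (104.83), followed by Myo1f, an unconventional myosin (70.49), and Arhgap17, a GTPase activating protein (65.16). Of lysosome and autophagy genes 5 of 27 had one (18.5%, 6.30 to 38.1), among them Rab7, a GTPase of late endosomes, at 95.1, and the protease legumain, Lgmn, at 68. The Lgmn region lay outside genes, 5645 bp from Lgmn.

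Further lists, apart from that of dendritic cell genes, had shares with intervals that included 6.84%. For cell cycle and replication 4 of 29 genes had a member (Bub1, Ccnd1, Ccnd3 and Cdk4), for MAPK and PI3K kinases 4 of 36 (among them Pik3r1, Map3k3 and Inpp5d), for glycolysis 3 of 20 (Aldoa, Pfkfb3 and Gpi1), for housekeeping genes 3 of 26 (Rab7, Chmp2a and Eef1a1) and for T cell genes 1 of 12 (Lck). The highest of these after Aldoa, whose region of 138.38 is that at the edge of Ppp4c, and Rab7 was Bub1, a spindle checkpoint kinase (70.46). The Bub1 region lay 7472 bp from that gene, at the edge of Mtln. Those of Ccnd1, Ccnd3 and Cdk4 also lay outside the named gene, 1485, 327 and 7898 bp away. That of Chmp2a lay 8413 bp away, at the edges of Gm31649 and Trim28. Of the 9 dendritic cell genes, Flt3, Tcf4 and Zbtb46 had a member (33.3%, 7.49 to 70.1), the highest share of the lists, and of the 7 with a KO untreated peak it was 42.9% (9.90 to 81.6), an interval that included 13.3%. The Zbtb46 region lay 2556 bp from that gene, at the edge of Tpd52l2. Of 24 IL-4 response genes, Pdcd1lg2, the PD-1 ligand PD-L2, had a member (65.21) and no locus peak elsewhere, and Mrc1, the mannose receptor, had one at 55.87.

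No member lay at the 17 genes of the IL-4 receptor and STAT6 (up to 19.5%), the 18 of creatine and arginine metabolism (up to 18.5%) or the 24 of oxidative phosphorylation (up to 14.2%). Gamt, which completes creatine synthesis, had 2 KO untreated locus peaks, all shared, up to 176.87. Arg1, the arginase of alternative activation, had 2 locus peaks in each untreated library, 1 after IL-4 in WT and none after IL-4 in KO macrophages. Gatm and Ckb had no member either. The lists of neutrophil, B cell, mast cell, erythroid, fibroblast, and neuron and hepatocyte genes had none either.

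**Figure D4:**
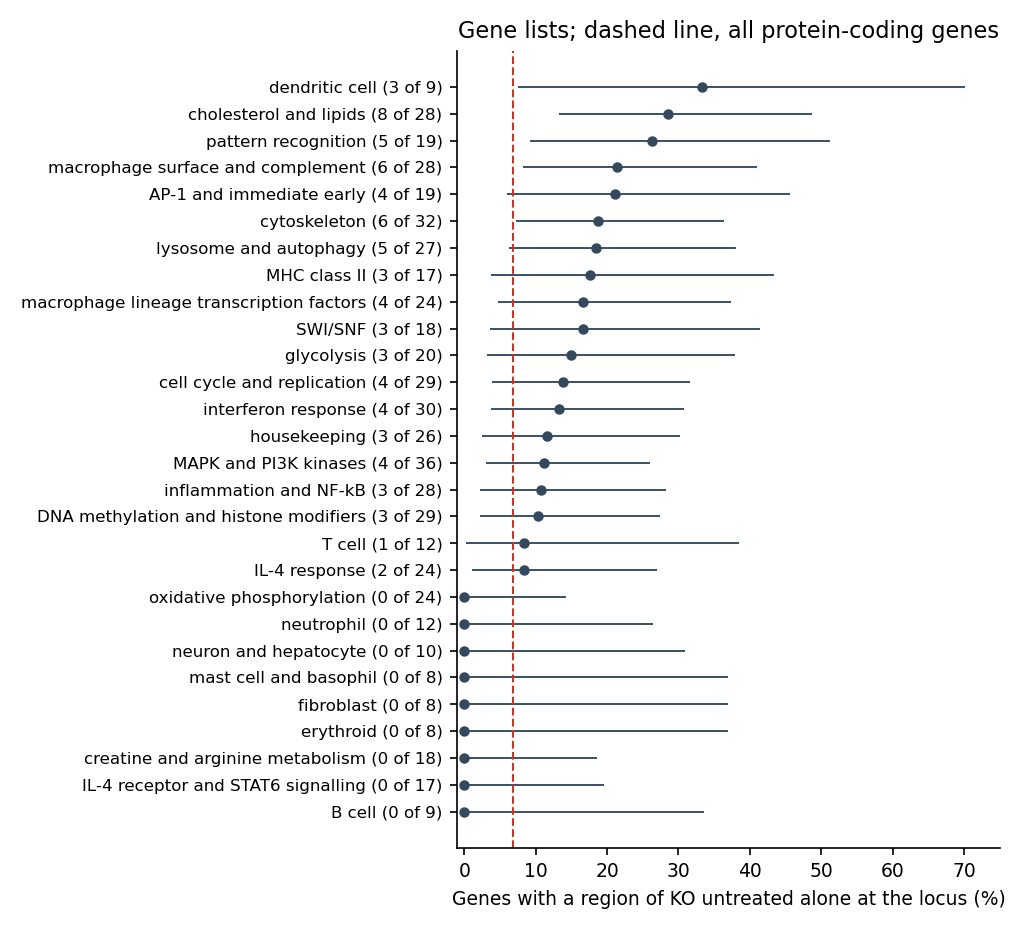
Share of the genes of each list with a member within 10 kb (percent), with exact 95% intervals, against the 6.84% of all genes (dashed line). Cholesterol and lipids stood at 28.6% with a lower bound of 13.2%, and most intervals crossed the line.

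Sequence was read at 251 annotated starts of 229 genes, all within 216 members. Their windows had a median GC content of 60.7% and 20 CpG pairs, against 62.7% and 24 at the 4499 starts open in all libraries and 56.3% and 13 at all 21263 starts. NF-Y letters (CCAAT) were in 25.9% of member windows (20.6 to 31.8), 34.1% of those open in KO untreated and 1 other library, 37.6% with 2 others, 52.1% in all libraries and 38.2% of all starts. Among lowest-quartile peaks the share was 26.6% in members (19.9 to 34.2) and 34.1% in the others (30.3 to 38.1), with overlapping intervals. SP/KLF letters were in 60.2% (53.8 to 66.3) against 74.1% in all libraries and 46.2% of all starts. GABP-type ETS letters were in 11.2% of member windows, 8.11% in all libraries and 3.79% of all starts. Every search covered both strands, and a match is a description of the letters only.

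The PU.1-type letters GAGGAAGT were in 18 of the 251 member windows (7.17%, 4.31 to 11.1). The share was 3.59% with 1 other library, 2.67% with 2 others, 3.38% in all libraries and 3.13% of all starts. All 18 windows, of 16 genes, belonged to lowest-quartile members, where the share was 11.4% (6.89 to 17.4) against 3.04% (1.81 to 4.76) of other lowest-quartile peaks. The windows of Btf3 held the same match, as did those of Parg, so some sites were counted more than once. At Trim2 the match lay in the window but beyond the member's end. With 1 start per gene the share over all members was 6.99% (4.05 to 11.1), and none was computed for the lowest quartile. The motif was singled out after the values of all 15 motifs were seen, so this is a description. Of the partner motifs, C/EBP letters were in 4.38% of member windows (2.21 to 7.71), below the 10.2% of all starts (9.76 to 10.6). In all libraries they were in 7.38% (6.63 to 8.18), with overlapping intervals. Of all starts, AP-1, RUNX and IRF letters were in 6.99%, 14.97% and 3.35%. The member intervals included these: 3.99 to 10.6, 12.7 to 22.4 and 2.21 to 7.71. RUNX in all libraries was lower, at 10.8% (9.87 to 11.7). The PU.1-type share was 4.30% (2.83 to 6.24) for regions alone in WT untreated, 6.17% (2.03 to 13.8) for WT IL-4 and 4% (0.833 to 11.2) for KO IL-4, and these intervals overlapped that of the members. The 16 genes with PU.1-type matches include Inpp5d, the SHIP1 phosphatase of immune cells, at 50.1, Cd300lf, an inhibitory receptor of myeloid cells, at 51.98, and Acer3, a ceramidase, at 62.49.

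**Figure D5:**
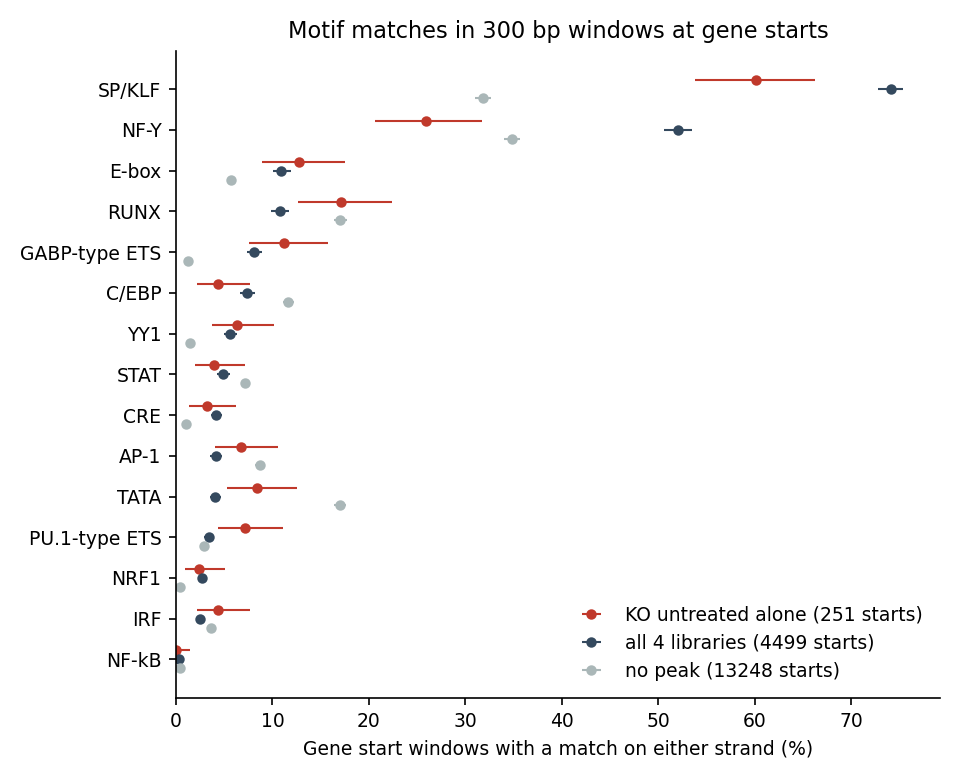
Share of 300-base gene start windows (percent) with a match to each motif on either strand, for starts in members, starts open in all libraries and starts with no peak in any library, with exact 95% intervals. NF-Y stood at 25.9% in members and 52.1% in all libraries, and PU.1-type ETS at 7.17% and 3.38%.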

How the data were processed

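The deposited data were 4 ATAC-seq peak lists, 1 per library. Per the submitters' processing notes, the tools were Bowtie2 2.2.5, HOMER and MACS 1.4.2, and mm10 was the build, with no roles or parameters. Peak score is a value deposited by the authors, with no unit stated, and was used only to describe and rank peaks within a list. No source used here states the depth, and how precisely a peak's presence is known cannot be given.

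Lists were merged at 1 bp of overlap. Genes were the 21887 protein-coding genes of GRCm38.p6, of which 17492 had an annotated start and 4395 were measured from either end. The 28 gene lists held 571 entries, of which 570 matched. Intervals are exact Clopper-Pearson 95% intervals, those of medians from order statistics, and no p-value was computed. Members, lists and tests were chosen with earlier results of these data known.

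Genes named are Slc6a8, Arg1, Spi1, Cebpb, Irf8, Stat6, Csf1r, Gamt, Gatm and Ckb, the nearest genes of the 15 highest members, the 10 highest at edges and the 10 highest inside genes, up to 3 per list, and up to 10 loci with 3 or more members. Genes with PU.1-type matches, those at the rule's limit, and further list members are named outside this rule and were chosen after their values were seen. Some genes that the rule names are left out here.

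Software was Python 3.11.15 with SciPy 1.17.1, pandas 2.3.3, Matplotlib 3.10.9 and NumPy 2.4.6. On simulated lists made from the 13714 KO untreated peaks, 1310 of 1330 planted regions were found and 0 were false. Each of the other 20 was overlapped by the shifted copy of a neighbour. Shared peaks were shifted copies that still overlapped their originals, so the count of 0 was fixed by the design. The run checks the merging step and gives no error rate for the members. The alternatives tried were reciprocal overlap of 50%, a peak within 500 bp counted as shared, scores of 100 or more, lists of equal length, autosomes, edges of 2.5 kb and loci of 50 kb.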

Additional observations from a re-analysis of the deposited data

How the results depend on the processing

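The edge share of lowest-quartile members minus that of other lowest-quartile peaks was -10.8 percentage points and was negative under each of the 8 alternatives run, from -26.1 to -8.29. Counting reciprocal overlap of 50% gave 1803 members, a lowest-quartile share of 35.3%, an edge share of 29.0%, a width of 397 bp and 23.2% within 1 kb of another library's peak. Counting a peak within 500 bp as shared gave 30.2%, 23.1% and 4.09% for the quartile, edge and 1 kb shares, with an edge difference of -13.6 points, and kept 71 of 81 named regions, losing those at Pprc1, Ccdc28b, Oas1a, Tlr7, Mertk, Pfkfb3, Myo1f, Chmp2a, Eef1a1 and Zbtb46. With scores of 100 or more in every list there were 594 members at 737 genes, with quartile, edge and 1 kb shares of 26.0%, 50.7% and 1.85%, a width of 584 bp and a PU.1-type share of 3.65%; 43 of these members were among those reported. With KO untreated scores of 100 or more and no peak of any score elsewhere, 43 members remained at 57 genes, with quartile and edge shares of 2.07% and 39.5%, an edge difference of -26.1 points, a width of 548 bp, a PU.1-type share of 0% and an NF-Y share of 20%. The PU.1-type and NF-Y shares of that set rest on the few of its 43 members that covered a start, so they say little. Lists of equal length gave 1012 members, of which 382 were among those reported, with quartile, edge and 1 kb shares of 27.8%, 35.7% and 5.24%, a width of 479 bp and a PU.1-type share of 2.78%. So the higher PU.1-type share of members was absent from the sets without low scores. Edges of 2.5 kb gave an edge share of 30.3%, loci of 50 kb gave 3270 genes, and starts in lowest-quartile members, an alternative chosen after seeing the data, gave a PU.1-type share of 11.4%. The other alternatives chosen after seeing the data, edges at either gene end and 1 start per gene, moved no value beyond its interval, and neither did autosomes. Where a value moved, the cause was not tested beyond the change of members that each alternative makes. No paired analysis was possible because each group held 1 library. Peak presence depends on depth, which is unknown, and 53.2% of members scored below 60, near the lowest score in the list.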

Other observations

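Of the 1150 members away from coding gene edges, 32 lay within 1 kb of the start of a long noncoding RNA (2.78%, 1.91 to 3.91), against 289 of 5397 other KO untreated peaks away from edges (5.35%, 4.77 to 5.99). Among lowest-quartile peaks, a comparison chosen after seeing the data, the shares were 2.84% (1.83 to 4.19) and 3.79% (2.89 to 4.88), with overlapping intervals. The highest of the 32 were at Smkr-ps (98.23) and Gm31568 (89.47). Of the 70 microRNA hairpins with a KO untreated peak within 1 kb, 6 had a member there (8.57%, 3.21 to 17.7), at scores from 50.92 to 68.85, and the interval included the 11.2% of KO untreated peaks that are members. They were Mir5103, Mir8119, Mir140, Mir193a, Mir219a-1 and Mir219c, of which the last pair lay beside a single member (55.43). Their mature products were not measured in these lists.

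Members made up 9.89% of KO untreated peaks on the X chromosome, which carries the deleted gene (28 of 283, 6.68 to 14.0), and 11.3% on autosomes. By chromosome the share ran from 9.65% on chromosomes 9 and 10 to 14.7% on chromosome 12 (11.9 to 18), leaving aside Y with 1 of 15.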
